A study of Mus musculus with 12 samples.

Results

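RNA from 6 hearts of Flox mice, labelled whole heart, was compared, 3 labelled exercise against 3 labelled sedentary, out of 12 heart libraries in the series. Flox mice carry Cited4 alleles flanked by loxP sites on both chromosomes, and no cre is named in their labels, so Cited4 is intact in all 6. The exercise group had access to a running wheel that the mice used at will for 8 weeks, and the sedentary group did not run for the same 8 weeks. The other 6 libraries come from KO mice, in which cre under the cardiomyocyte promoter aMHC deletes Cited4 (3 labelled exercise, 3 labelled sedentary). Strain, sex, age, time of collection and the animal behind each library are not given in the labels, and the p-values rest on the spread among these libraries alone, which may be technical.

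Groups follow the treatment words of the labels. The letter codes in the titles read the other way (an E beside the sedentary word, an S beside the exercise word), so the groups are called labelled exercise and labelled sedentary. If the letters and not the words were right, every difference given here would change sign. The series title concerns whether hearts need CITED4 for growth and cardiomyocyte formation during exercise. The Flox comparison measures the labelled exercise difference with the gene present.

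Endurance running makes the heart grow without the fibrosis and loss of function of disease. In mice this growth has been tied to IGF1 and AKT signalling and to lower levels of the transcription factor C/EBPb, which restrains CITED4, a co-regulator that binds the acetyltransferases CBP and p300. Hearts also run a circadian clock. In it the activators CLOCK and BMAL1 (gene Arntl) or NPAS2 bind E-box sites and drive the repressors of the PER, CRY, REV-ERB (Nr1d1, Nr1d2) and DEC (Bhlhe40, Bhlhe41) families. REV-ERB proteins repress Arntl in turn, and the outputs DBP, TEF and HLF compete with the repressor NFIL3 at D-box sites. Misfolded protein in the cytosol induces chaperones through HSF1 at heat shock elements. In the endoplasmic reticulum (ER) the unfolded protein response acts through XBP1, ATF6 and ATF4, in part at ER stress elements.

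Promoters of 6 genes that these results turn on are printed 5′ to 3′ on the gene's strand, from 250 bases before to 25 after the annotated start, with the motif in capitals (RefSeq, GRCm38.p6). They show the sites through which the clock, HSF1 and the ER stress factors are known to act. For the clock these are the E-box CACGTG, at chr3:95882204-95882478 (minus strand) for Ciart and chr6:145865396-145865670 (minus strand) for Bhlhe41, and the D-box TTATGTAA, at chr4:151044641-151044915 (minus strand) for Per3:
Ciart: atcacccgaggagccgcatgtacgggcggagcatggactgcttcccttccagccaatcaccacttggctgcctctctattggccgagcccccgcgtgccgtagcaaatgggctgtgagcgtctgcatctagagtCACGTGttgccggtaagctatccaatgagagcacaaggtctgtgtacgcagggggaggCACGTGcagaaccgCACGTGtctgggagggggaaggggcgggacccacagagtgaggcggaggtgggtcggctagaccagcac
Bhlhe41: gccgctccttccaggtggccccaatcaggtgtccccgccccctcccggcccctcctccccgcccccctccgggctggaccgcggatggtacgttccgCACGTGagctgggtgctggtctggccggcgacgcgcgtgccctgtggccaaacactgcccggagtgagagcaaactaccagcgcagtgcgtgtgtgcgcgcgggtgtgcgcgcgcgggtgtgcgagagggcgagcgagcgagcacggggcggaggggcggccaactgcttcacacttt
Per3: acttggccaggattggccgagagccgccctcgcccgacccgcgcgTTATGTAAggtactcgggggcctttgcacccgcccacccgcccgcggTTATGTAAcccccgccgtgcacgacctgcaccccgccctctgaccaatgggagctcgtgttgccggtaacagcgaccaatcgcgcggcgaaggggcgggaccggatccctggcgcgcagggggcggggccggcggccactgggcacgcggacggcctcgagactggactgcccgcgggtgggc
For the chaperones they are a run of overlapping heat shock elements at chr9:18292017-18292291 (plus strand) for Chordc1, and the ER stress element at chr2:34771840-34772114 (plus strand) for Hspa5 and chr12:17266339-17266613 (plus strand) for Pdia6:
Chordc1: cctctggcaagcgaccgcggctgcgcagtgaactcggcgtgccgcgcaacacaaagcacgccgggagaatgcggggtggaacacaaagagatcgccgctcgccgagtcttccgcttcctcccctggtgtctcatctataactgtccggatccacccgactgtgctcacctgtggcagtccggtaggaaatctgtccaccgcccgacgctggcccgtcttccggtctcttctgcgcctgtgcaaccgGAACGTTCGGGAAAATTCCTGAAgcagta
Hspa5: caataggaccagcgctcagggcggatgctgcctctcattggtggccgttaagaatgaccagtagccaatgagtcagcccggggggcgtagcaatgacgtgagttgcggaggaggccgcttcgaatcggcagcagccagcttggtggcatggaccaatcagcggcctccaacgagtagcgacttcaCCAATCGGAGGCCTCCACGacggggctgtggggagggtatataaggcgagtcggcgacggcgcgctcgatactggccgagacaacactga
Pdia6: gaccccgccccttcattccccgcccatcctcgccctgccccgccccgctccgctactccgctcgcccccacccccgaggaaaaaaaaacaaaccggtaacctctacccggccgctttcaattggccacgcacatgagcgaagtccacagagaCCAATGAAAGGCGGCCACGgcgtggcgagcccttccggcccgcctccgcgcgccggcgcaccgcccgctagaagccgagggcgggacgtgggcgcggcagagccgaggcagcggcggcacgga
Counted from the start site as 0, the Ciart E-boxes begin at -116, -58 and -44, the Bhlhe41 E-box at -153 and the Per3 D-boxes at -205 and -158. The heat shock elements of Chordc1 begin at -4, 1 and 6, and the ER stress elements of Hspa5 and Pdia6 at -65 and -98. No printed match overlapped a match of another of these motifs.

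Each motif was searched on both strands in the 300 bases from 250 before to 50 after all 32851 annotated starts. CACGTG was in 7.15% of windows, and in 1 or more windows of 5 of the 17 clock genes that matched the table (Per1, Cry1, Tef, Bhlhe41 and Ciart). The D-box, searched as TTATGTAA and TTACGTAA, was in 1.06% of windows and, among clock genes, in Per3. The heat shock element, searched as 3 alternating TTC and GAA units with any 2 bases between neighbours (starting with either unit), was in 0.603% of windows and in 4 of 19 matched heat shock genes (Hsph1, Hspd1, Hspe1 and Chordc1). The ER stress element, CCAAT and CCACG with any 9 bases between them, was in 0.119% of windows and in 7 of 26 matched genes of the unfolded protein and integrated stress response (Hspa5, Hsp90b1, Calr, Canx, Pdia6, Dnajc3 and Creld2). The shares over all starts are by window, and the list counts are by gene, which can have several windows. Counted by window, the E-box was in 6 of 25 clock windows and the D-box in 1 of 25. The heat shock element was in 5 of 27 windows of its list and the ER stress element in 7 of 28. A match describes these letters and is not a measured binding site.

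Labelled exercise hearts held less RNA of clock repressors and clock outputs, more Arntl and Nfil3, and more RNA of several cytosolic and ER chaperones than labelled sedentary hearts, and in most of these genes the groups did not overlap. No single gene passed the main test. With edgeR's quasi-likelihood test and Benjamini-Hochberg adjustment over the 15226 genes with enough counts, 0 genes had an adjusted p under 0.05 (0%), and the smallest adjusted p was 0.0715, for the clock repressor Bhlhe40 and the co-chaperone Dnaja1. DESeq2 called 49 genes (0.364% of the 13445 genes it gave an adjusted p), 16 higher and 33 lower in labelled exercise hearts. At an unadjusted p under 0.05 in edgeR, 587 genes were higher (3.86%) and 542 lower (3.56%). Their sum of 1129 was 648 without labelled sedentary 2, 679 without both hearts with high atrial markers and 2052 with voom. In 1142 genes (7.5%) all 3 labelled exercise values lay above all 3 labelled sedentary values, and in 1001 (6.57%) below. Such genes are said to have groups apart. The median log2 difference over all tested genes was 0.01. Differences here are log2 labelled exercise over labelled sedentary ± standard error, from the edgeR fit, and levels are CPM, each gene's count relative to its library size after TMM scaling.

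Flox libraries held 17465432 to 20467300 counts, of which 22.7% to 27.2% were mitochondrially encoded. Heart markers were present: the cardiac myosin Myh6 stood at 29067, 29613 and 28997 CPM in the labelled sedentary and 26358, 27398 and 23122 CPM in the labelled exercise hearts, and the 10 thymus and lung markers were under 1 CPM in all 6 libraries, 5 of them at 0 (Rag1, Rag2, Dntt, Sftpa1 and Sftpc). Atrial markers split both groups: the 19 genes summed to 376, 398 and 4465 CPM in labelled sedentary 1, 2 and 3 and to 334, 5000 and 313 CPM in labelled exercise 1, 2 and 3. The atrial light chain Myl7 was at 516 CPM in labelled sedentary 3 and 389 CPM in labelled exercise 2, and at 0 to 1.27 CPM in the other 4. Those 4 libraries thus held almost no RNA of a gene that defines atria, which goes against the label whole heart. The hearts with the high sums were not alike in every atrial marker. Bmp10 stood at 559.7 CPM in labelled exercise 2 and at 0.101 CPM in labelled sedentary 3, while Myl7 was higher in labelled sedentary 3. Whether these hearts hold the same atrial tissue was not tested. Entries naming cloning vectors, adaptors or controls were nearly absent from labelled sedentary 1 and labelled exercise 2 (6.3e-05% and 3.87e-05% of counts) and took 0.0731% to 0.139% in the other 4. Results that lean on these libraries are given with and without them.

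The 2 genes with the smallest p lie on opposite sides. Bhlhe40 encodes the clock repressor DEC1 (chromosome 6, 108660629 to 108666925, plus strand, GRCm38, GENCODE). It stood at 61.5, 68.8 and 69.4 CPM (labelled sedentary) and 39.5, 34.4 and 32.6 CPM (labelled exercise). The groups are far apart relative to their spread, and the difference was -0.91 ± 0.13 (edgeR adjusted p = 0.0715, DESeq2 adjusted p = 4.73e-07). Dnaja1 encodes an HSP40 co-chaperone that hands substrates to HSP70 (chromosome 4, 40722150 to 40737149, plus strand). Its levels were 47.1, 46.8 and 48.8 CPM in labelled sedentary against 92.1, 75.1 and 102 CPM in labelled exercise hearts. The labelled sedentary hearts lie within a few CPM of each other and all labelled exercise hearts lie well above them, at a difference of 0.92 ± 0.13 (edgeR adjusted p = 0.0715, DESeq2 adjusted p = 4.92e-07).

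The other genes of the 12 with the smallest p in each direction, among those with a mean of at least 1 CPM and groups that did not overlap, had edgeR adjusted p of 0.399 to 0.412, and DESeq2 called 19 of the 24. That the groups did not overlap was part of this choice. On the higher side, Chordc1, an HSP90 co-chaperone, was at 0.56 ± 0.12, and Nfil3, the D-box repressor, at 1.85 ± 0.40. Of the kinases, Sgk1, which is induced by serum and glucocorticoids and acts downstream of PI3K, was at 0.51 ± 0.12, and Prkcd, protein kinase C delta, at 0.52 ± 0.12. Sept11, a septin, stood at 29.7, 26.5 and 26.8 CPM in the labelled sedentary and 35.8, 40.8 and 41.7 CPM in the labelled exercise hearts (0.51 ± 0.11). Angpt2, the angiopoietin that loosens vessel walls, stood at 3.896, 3.47 and 3.58 CPM (labelled sedentary) and 5.99, 5.36 and 7.26 CPM (labelled exercise) (0.77 ± 0.18). Tbxas1, thromboxane synthase, was at 1.10 ± 0.25 and Lcp2, a signalling adaptor of blood cells, at 1.20 ± 0.27. Ypel2 (1.02 ± 0.23), Gas7 (0.75 ± 0.18) and Igsf9, a cell adhesion molecule of the immunoglobulin family (1.35 ± 0.31), complete the 12.

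On the lower side, Pfkfb3, which makes the allosteric activator of phosphofructokinase, stood at 13.3, 15.02 and 16.9 CPM in labelled sedentary against 6.16, 6.26 and 8.76 CPM in labelled exercise hearts (-1.10 ± 0.21). All 3 labelled sedentary hearts lie well above all labelled exercise hearts. Cth, which makes cysteine from cystathionine, stood at 1.89, 3.31 and 1.41 CPM in the labelled sedentary and 0.627, 0.631 and 0.388 CPM in the labelled exercise hearts (-1.99 ± 0.41), the most negative of the 12. Bhlhe41, the clock repressor DEC2, was at -1.40 ± 0.26. The kinase Dyrk1b was at -0.68 ± 0.13, the prolactin receptor Prlr at -0.87 ± 0.18, the chemerin-binding receptor Ccrl2 at -0.66 ± 0.13 and the folate carrier Slc19a1 at -0.95 ± 0.20. Angptl2, a secreted angiopoietin-like protein, was at -0.63 ± 0.13, and Intu, which is needed to build cilia, at -0.61 ± 0.13. Zc3h6 (-1.16 ± 0.24) and Casc4 (-0.76 ± 0.16) complete the 12.

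Of the 21 core clock genes, all tested, 12 were lower in every labelled exercise heart than in any labelled sedentary heart and 4 were higher, against 6.57% and 7.5% of all genes. The median log2 difference was -0.90 against 0.01 over all genes. At an unadjusted p under 0.05 in edgeR, 12 were lower and 5 higher, against 3.56% and 3.86% of all genes. DESeq2 called 9 (Bhlhe40, Bhlhe41, Cry2, Nfil3, Ciart, Tef, Nr1d2, Hlf and Dbp), against 0.364% of all genes it gave an adjusted p. Clock members beyond the 4 with the smallest p were chosen for naming after their values were seen.

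Among the activators, Arntl, which encodes BMAL1, stood at 5.08, 0.8403 and 5.75 CPM (labelled sedentary) and 22.5, 22.7 and 18.8 CPM (labelled exercise). Labelled sedentary 2 is the lowest of the 6 and the groups do not overlap; the difference was 2.45 ± 0.80, and 1.97 without labelled sedentary 2. Npas2, a paralog of Clock, stood at 3.25, 1.37 and 2.47 CPM in labelled sedentary against 6.102, 6.99 and 5.49 CPM in labelled exercise hearts, again with labelled sedentary 2 lowest (1.39 ± 0.53). Clock itself was at 0.46 ± 0.18 with groups apart. Rora, a nuclear receptor that activates Arntl, gave no such separation and was at -0.44 ± 0.18 with overlapping groups.

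The repressors were mostly lower. Per2 stood at 19.7, 37.8 and 18.6 CPM in the labelled sedentary and 5.36, 3.58 and 8.98 CPM in the labelled exercise hearts (-2.09 ± 0.64), with labelled sedentary 2 the highest. Per3 was at -1.76 ± 0.51, and Per1 at -0.78 ± 0.47 with an unadjusted p of 0.132. Cry2, a cryptochrome, stood at 31.9, 57.03 and 40.1 CPM (labelled sedentary) and 24.7, 22.6 and 21.8 CPM (labelled exercise) (-0.90 ± 0.20), while its paralog Cry1 was at 0.58 ± 0.25 with groups that overlap. The REV-ERB genes were at -1.25 ± 0.37 (Nr1d1) and -1.09 ± 0.27 (Nr1d2). Nr1d1, the repressor of Arntl and Nfil3, stood at 183, 136 and 162 CPM in labelled sedentary against 106, 41.2 and 55.2 CPM in labelled exercise hearts. Labelled exercise 1 is the closest to the labelled sedentary hearts. Bhlhe41 stood at 42.6, 54.5 and 45.9 CPM in the labelled sedentary and 23.95, 12.9 and 17.6 CPM in the labelled exercise hearts, lowest in labelled exercise 2. Ciart, a repressor whose promoter holds 3 E-boxes, stood at 13.2, 28.4 and 11.9 CPM (labelled sedentary) and 2.68, 1.52 and 1.99 CPM (labelled exercise). Its 3 labelled exercise values lie far below the lowest labelled sedentary value, and the difference of -3.11 ± 0.68 was the most negative of the list (DESeq2 adjusted p = 0.00424).

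Outputs of the clock lay on both sides. Dbp stood at 199.7, 259 and 184 CPM in labelled sedentary against 51.04, 7.57 and 24.05 CPM in labelled exercise hearts. Labelled exercise 2 holds the least and labelled exercise 1 the most of its group, and the difference was -2.96 ± 0.84, or -2.52 without labelled exercise 2. Its relatives Tef and Hlf were at -1.48 ± 0.35 and -1.50 ± 0.41. Nfil3, which represses at the same D-box sites, stood at 6.199, 3.41 and 4.09 CPM in the labelled sedentary and 11.01, 21.5 and 16.6 CPM in the labelled exercise hearts (1.85 ± 0.40, DESeq2 adjusted p = 0.00321). The casein kinases that mark PER proteins for breakdown showed little difference, with Csnk1d at -0.04 ± 0.09 and Csnk1e at -0.14 ± 0.11.

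Within each group the hearts were not alike in the clock. Labelled sedentary 2 had the highest Per2, Per3, Cry2, Dbp, Hlf, Tef and Ciart and the lowest Arntl, Npas2, Clock and Nfil3 of the 3 labelled sedentary hearts. Over the settings tried the list median ran from -0.96 to -0.64, the value nearest to 0 being that without labelled sedentary 2. Without that heart Clock was at 0.30, Per1 at -0.49, Rora at -0.27 and Cry1 at 0.93, and Cry1 was at 0.33 without labelled sedentary 1. The clock list median was -0.87 without both hearts with high atrial markers and -0.93 without both hearts lacking vector entries.

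**Figure D1:**
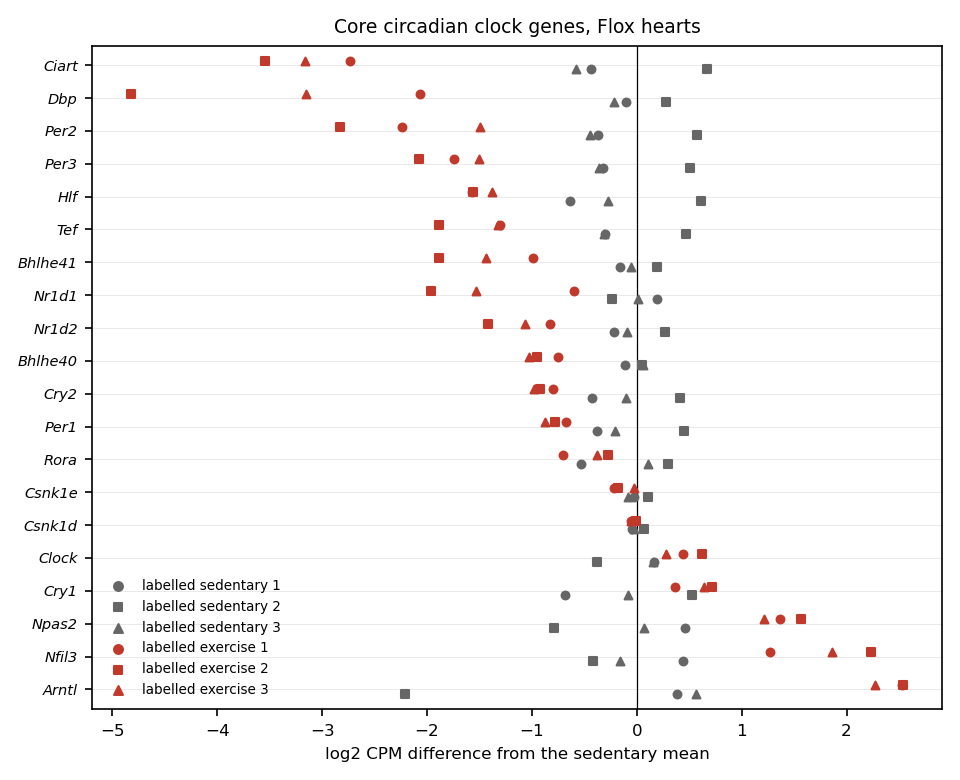
Rows are 20 of the 21 core clock genes in the 6 Flox hearts, and the x axis is the log2 CPM difference from the mean of the labelled sedentary hearts (grey, labelled exercise in red, marker shape gives the replicate). Ciart, Dbp and Per2 lie far to the left in all 3 labelled exercise hearts, Arntl, Nfil3 and Npas2 to the right, and Arntl in labelled sedentary 2 lies far below its group.

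Genes of the ER unfolded protein and integrated stress response were higher in labelled exercise hearts as a group. Of 27 tested members of 28, 18 were higher in every labelled exercise heart than in any labelled sedentary heart and 3 were lower. Over all genes these shares were 7.5% and 6.57%. The median was 0.37. At an unadjusted p under 0.05 in edgeR, 15 were higher and 1 lower, against 3.86% and 3.56% of all genes. None passed edgeR after adjustment. DESeq2 called 2, Pdia3 and Pdia6, against 0.364% of all genes it gave an adjusted p. The median stayed between 0.33 and 0.45 over the settings tried.

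Chaperones and folding enzymes of the ER led this group. Pdia6, a protein disulfide isomerase with an ER stress element in its promoter, stood at 77.3, 69.7 and 67.1 CPM (labelled sedentary) and 98.5, 115 and 95.7 CPM (labelled exercise) (0.53 ± 0.13). Pdia3, which folds glycoproteins together with calreticulin, stood at 125, 103 and 116 CPM in labelled sedentary against 149.6, 179.6 and 145 CPM in labelled exercise hearts (0.47 ± 0.12). In both genes labelled exercise 2 is the highest and the groups are apart. Hspa5, the ER chaperone BiP and the best known target of this response, stood at 419, 337 and 371 CPM in the labelled sedentary and 509, 539.5 and 443 CPM in the labelled exercise hearts (0.40 ± 0.16). Its partners were at 0.89 ± 0.23 (Manf), 1.06 ± 0.28 (Sdf2l1), 0.56 ± 0.19 (Hyou1), 0.29 ± 0.11 (Dnajb11), 0.51 ± 0.18 (Pdia4) and 0.69 ± 0.20 (Creld2), each with groups apart. Manf, which binds BiP, stood at 33.7, 17.6 and 23.5 CPM (labelled sedentary) and 41.3, 51.9 and 45.05 CPM (labelled exercise). Calr, calreticulin, was at 0.37 ± 0.17 and Hsp90b1, the ER form of HSP90, at 0.27 ± 0.14. Their levels are not compared between genes, since counts also follow transcript length.

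Of the factors that drive the response, Xbp1 stood at 50.8, 43.9 and 47.5 CPM in labelled sedentary against 60.2, 76.8 and 67.2 CPM in labelled exercise hearts (0.52 ± 0.15), and Atf4 at 53.9, 49.4 and 58.3 CPM in the labelled sedentary and 65.5, 66.6 and 67.6 CPM in the labelled exercise hearts (0.30 ± 0.13). All 3 labelled exercise hearts exceed all labelled sedentary hearts in both. The genes of serine synthesis, which ATF4 induces, were higher too in value: Phgdh stood at 1.06, 1.31 and 1.41 CPM (labelled sedentary) and 1.94, 2.47 and 2.33 CPM (labelled exercise) (0.82 ± 0.25) and Psat1 at 2.07, 2.63 and 3.03 CPM in labelled sedentary against 3.93, 4.42 and 3.99 CPM in labelled exercise hearts (0.67 ± 0.21). Asns, asparagine synthetase, was at 0.47 ± 0.20 and the mitochondrial folate enzyme Mthfd2 at 0.48 ± 0.24. Other ATF4 targets stood lower: the glutathione-degrading Chac1 was at -0.56 ± 0.37, the pseudokinase Trib3 at -0.22 ± 0.18 and the serine hydroxymethyltransferase Shmt2 at -0.22 ± 0.10, all with groups apart. Herpud1, which takes part in ER-associated degradation, was at -0.42 ± 0.18 with overlapping groups. Herpud1 was at -0.17 without labelled sedentary 2, Pdia4 at 0.30 without labelled exercise 2 and Chac1 at -0.34 without labelled exercise 3.

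Heat shock genes differed in fewer members. Of 25 tested, 8 were higher with groups apart and 3 lower, against 7.5% and 6.57% of all genes. At an unadjusted p under 0.05, 8 were higher and 1 lower, against 3.86% and 3.56%, and the median was 0.23. The members with groups apart on the higher side are mostly HSP70 proteins and their HSP40 partners. Hspa8, the constitutive HSP70, stood at 925, 995 and 1138 CPM in the labelled sedentary and 1502, 1296 and 1659 CPM in the labelled exercise hearts (0.54 ± 0.14, DESeq2 adjusted p = 0.0159). Inducible HSP70 comes from 2 near-identical genes, Hspa1a and Hspa1b, between which reads may be split: Hspa1a stood at 2.48, 3.31 and 2.52 CPM (labelled sedentary) and 5.13, 5.52 and 7.04 CPM (labelled exercise) (1.09 ± 0.29) and Hspa1b at 3.07, 3.99 and 2.57 CPM in labelled sedentary against 5.93, 5.99 and 5.71 CPM in labelled exercise hearts (0.87 ± 0.26). The HSP40 gene Dnajb1 was at 0.53 ± 0.17. Chordc1, whose start carries 3 overlapping heat shock elements, stood at 25.4, 28.2 and 32.96 CPM in the labelled sedentary and 45.6, 37.3 and 45.2 CPM in the labelled exercise hearts. Here too the groups are apart.

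HSP90 and the small heat shock proteins did not separate. Hsp90aa1 stood at 88.9, 96.000 and 125 CPM (labelled sedentary) and 174, 119 and 147 CPM (labelled exercise) (0.51 ± 0.22), Hsph1 at 53.5, 39.4 and 60.5 CPM in labelled sedentary against 126, 37.6 and 52.6 CPM in labelled exercise hearts (0.50 ± 0.50) and Hspb1 at 205, 156 and 192 CPM in the labelled sedentary and 302, 165 and 258 CPM in the labelled exercise hearts (0.39 ± 0.23). In all 3, labelled exercise 1 is the highest of the 6 and labelled exercise 2 lies within or close to the labelled sedentary range. Without labelled exercise 1 Hsph1 was at -0.18 and Hspb1 at 0.20. The activator Hsf1 was at 0.27 ± 0.11 with overlapping groups. On the lower side stood Cirbp and Rbm3, RNA-binding proteins that are induced by cold. Cirbp stood at 70.5, 80.5 and 59.8 CPM (labelled sedentary) and 45.2, 43.7 and 42.3 CPM (labelled exercise) (-0.68 ± 0.15, DESeq2 adjusted p = 0.0207). Rbm3 was at -0.36 ± 0.18, also with groups apart. The list median was 0.31 without both hearts with high atrial markers, 0.44 without both hearts lacking vector entries and 0.14 without labelled exercise 1.

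**Figure D2:**
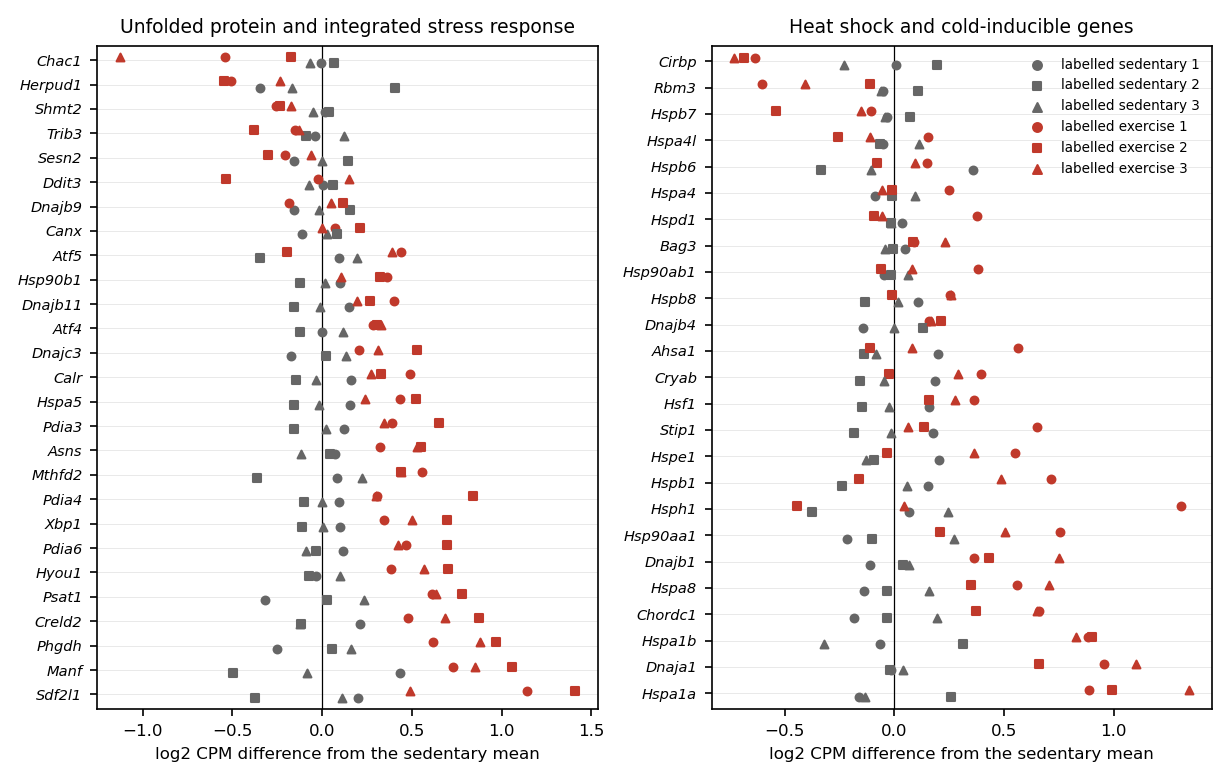
Rows are genes of the unfolded protein and integrated stress response (left) and heat shock and cold-inducible genes (right), with the log2 CPM difference of each Flox heart from the labelled sedentary mean on the x axis (grey labelled sedentary, red labelled exercise, shapes are replicates). Most red points of the left panel lie to the right of all grey points, while on the right Hspa1a, Dnaja1 and Hspa8 separate, Hsph1 is led by labelled exercise 1 and Cirbp lies to the left in all 3 labelled exercise hearts.

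Glucocorticoid-responsive genes lay on both sides. Of 21 tested of 22, 5 were higher and 5 lower with groups apart, against 7.5% and 6.57% of all genes. The median was 0.12, and it was -0.05 without both hearts with high atrial markers and -0.03 without both hearts lacking vector entries. Zbtb16, a transcription factor strongly induced by glucocorticoids, stood at 92.6, 144 and 19.6 CPM in labelled sedentary against 9.64, 9.096 and 14.1 CPM in labelled exercise hearts. The labelled sedentary hearts themselves differ widely, with labelled sedentary 3 close to the labelled exercise range (-2.96 ± 0.64, DESeq2 adjusted p = 0.00321). Fkbp5, a co-chaperone of the glucocorticoid receptor, stood at 19.95, 30.7 and 13.7 CPM in the labelled sedentary and 11.3, 12.6 and 10.9 CPM in the labelled exercise hearts (-0.88 ± 0.33). Klf9 and Klf15, Kruppel-like factors of muscle metabolism, were at -0.69 ± 0.17 and -0.66 ± 0.17. On the higher side, Ddit4, an inhibitor of mTORC1, stood at 16.7, 17.2 and 11.3 CPM (labelled sedentary) and 25.8, 48.9 and 36.6 CPM (labelled exercise) (1.30 ± 0.35, DESeq2 adjusted p = 0.0214). Sgk1 stood at 50.1, 40.4 and 47.9 CPM in labelled sedentary against 63.2, 66.6 and 67.8 CPM in labelled exercise hearts. Errfi1, a brake on EGF receptor signalling, was at 1.02 ± 0.29 and Cdkn1a, the cyclin-dependent kinase inhibitor p21, at 1.34 ± 0.44, both with groups apart. Without labelled sedentary 2, Fkbp5 was at -0.53. Per1 belongs to this list and to the clock list.

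Cited4 stood at 16.3, 10.1 and 14.9 CPM in the labelled sedentary and 23.2, 13.7 and 23.9 CPM in the labelled exercise hearts, from 276, 192 and 295 against 406, 261 and 431 counts. The groups overlap, since labelled exercise 2 lies below labelled sedentary 1 and 3, and the difference of 0.56 ± 0.33 had an edgeR adjusted p of 0.735. Cebpb, which encodes C/EBPb, stood at 33.4, 45.7 and 22.1 CPM (labelled sedentary) and 16.2, 26.03 and 23.3 CPM (labelled exercise) (-0.62 ± 0.32, adjusted p = 0.7, edgeR). Labelled sedentary 3 lies inside the labelled exercise range, and without labelled sedentary 2 the difference was -0.34. Of the other CITED genes, Cited2 was at -0.26 ± 0.15 with groups apart and Cited1, at under 1 CPM in every heart, at -0.01 ± 0.87. The acetyltransferase partners Crebbp and Ep300 were at -0.14 ± 0.10 and -0.08 ± 0.13. Among cardiac transcription factors Gata4 was at 0.01 ± 0.14, with a sign that depended on the setting, Gata6 at -0.13 ± 0.12, Nkx2-5 at 0.10 ± 0.12, Tbx5 at -0.23 ± 0.49 and Srf at 0.13 ± 0.17. Mef2a, Mef2c and Mef2d were at -0.16 ± 0.12, -0.10 ± 0.12 and -0.08 ± 0.14, and the SRF co-activators Myocd and Mrtfa at -0.29 ± 0.18 and 0.15 ± 0.12. Hand2 was the single member of the 17 with an unadjusted p under 0.05, at 41.3, 40.5 and 34.5 CPM in labelled sedentary against 44.7, 50.9 and 45.8 CPM in labelled exercise hearts (0.28 ± 0.12). The median of the 17 was -0.08, with 2 higher and 1 lower with groups apart, against 7.5% and 6.57% of all genes.

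Growth signalling through IGF1, PI3K, AKT and mTOR leaned to lower values. Of 39 tested genes, 29 were below 0 and the median was -0.11. At an unadjusted p under 0.05, 5 were lower and 1, Ddit4, was higher, against 3.56% and 3.86% of all genes. Foxo3, the transcription factor that AKT keeps out of the nucleus, stood at 65.9, 137 and 79.95 CPM in the labelled sedentary and 57.4, 52.7 and 53.7 CPM in the labelled exercise hearts (-0.79 ± 0.21). Its labelled exercise values are nearly equal and lie below all labelled sedentary values. Insr, the insulin receptor, stood at 115, 181 and 141 CPM (labelled sedentary) and 114, 113 and 107 CPM (labelled exercise) (-0.39 ± 0.15), and Akt1 at 147, 159 and 173 CPM in labelled sedentary against 139.7, 128 and 137 CPM in labelled exercise hearts (-0.25 ± 0.11). Pik3r1, the regulatory subunit of PI3K, and Sesn1, a sestrin, were at -0.51 ± 0.21 and -0.43 ± 0.16 with overlapping groups. Igf1 was at 0.40 ± 0.20 and its receptor Igf1r at -0.25 ± 0.12, both overlapping. Labelled sedentary 2 held the most of Foxo3, Insr, Pik3r1, Sesn1 and Igf1r, and without it they were at -0.42, -0.20, -0.31, -0.17 and -0.15.

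Of 20 hypertrophy and stress genes, 12 were above 0, at a median of 0.09. At an unadjusted p under 0.05, 6 were higher (Tnc, Timp1, Postn, Rcan1, Spp1 and Fhl1) and 0 lower, against 3.86% and 3.56% of all genes, and DESeq2 called Tnc. Groups were apart, on the higher side, in Timp1 and Rcan1, against 7.5% of all genes. Rcan1, a target of calcineurin and NFAT, stood at 54.1, 42.8 and 52.9 CPM in the labelled sedentary and 89.4, 73.97 and 77.1 CPM in the labelled exercise hearts (0.68 ± 0.28). Tnc, the matrix protein tenascin C, stood at 1.12, 0.945 and 0.656 CPM (labelled sedentary) and 3.31, 10.1 and 1.11 CPM (labelled exercise) (2.42 ± 0.74), and Spp1, osteopontin, at 0.5904, 0.473 and 0 CPM in labelled sedentary against 0.513, 40.96 and 0.831 CPM in labelled exercise hearts. Both are led by labelled exercise 2. Without it Tnc was at 1.28 and Spp1 at 0.94, against 5.34 ± 2.16 with it. Postn, periostin, was at 0.81 ± 0.32 and at 0.38 without that heart. The LIM protein gene Fhl1 was at 0.26 ± 0.12.

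Of 25 sarcomere genes, 22 were below 0, at a median of -0.08. Tcap, the titin cap, stood at 2357, 2117 and 1612 CPM in the labelled sedentary and 1097, 549 and 651 CPM in the labelled exercise hearts (-1.41 ± 0.47), with no overlap. Myom2, an M-band protein, stood at 749, 1221 and 872 CPM (labelled sedentary) and 678, 626 and 618 CPM (labelled exercise) (-0.56 ± 0.18), and the thin-filament nucleator Lmod2 was at -0.53 ± 0.19. The ventricular marker Lrrc10 stood at 96.2, 145 and 95.2 CPM in labelled sedentary against 78.4, 68.3 and 82.1 CPM in labelled exercise hearts (-0.55 ± 0.16). Of 11 ventricular markers, 10 were below 0 and 1 above, at a median of -0.09, and Lrrc10 alone had an unadjusted p under 0.05 (edgeR). The ventricular markers Myl2 and Myl3 were at -0.02 ± 0.19 and -0.03 ± 0.22. Among genes of excitation and adrenergic control, the alpha-adrenergic receptor Adra1a stood at 12.7, 29.4 and 18.6 CPM in the labelled sedentary and 10.3, 11.4 and 8.92 CPM in the labelled exercise hearts (-0.99 ± 0.38). The calcium channel subunit Cacnb2 was at -0.30 ± 0.12, the kinase subunit Camk2b at -0.47 ± 0.22 and the potassium channel Kcnh2 at -0.49 ± 0.18. Without labelled sedentary 2, Myom2 was at -0.34, Lmod2 at -0.28, Lrrc10 at -0.33 and Adra1a at -0.62. Camk2b was at -0.27 without labelled exercise 2 and Kcnh2 at -0.32 without labelled exercise 3.

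Energy metabolism differed little. Of 76 nuclear-encoded respiratory chain genes 64 were above 0, but 0 had groups apart and 0 an unadjusted p under 0.05 in edgeR, at a median of 0.10 (-0.05 to 0.26 over the settings tried). Among them Cycs, cytochrome c, was at 0.24 ± 0.13 and the complex I subunit Ndufb6 at 0.25 ± 0.13. Without labelled exercise 3 they were at 0.13 and 0.10. The list mean was highest in labelled exercise 3, the heart with the largest mitochondrially encoded share (27.2%), and the part of that share was not tested. Regulators of mitochondrial biogenesis had a median of -0.11. Of 23 tested, 5 were lower and 1 higher with groups apart, against 6.57% and 7.5% of all genes. Esrrb, an oestrogen-related receptor, stood at 23.9, 33.1 and 29.4 CPM (labelled sedentary) and 19.2, 20.03 and 17.8 CPM (labelled exercise) (-0.60 ± 0.17), and the mitochondrial transcription factor Tfb2m at -0.25 ± 0.10. Fatty acid genes had a median of -0.02. Cpt1a, which loads fatty acids onto carnitine, was at -0.38 ± 0.15 and the acyl-CoA thioesterase Acot1 at 0.76 ± 0.34, both with groups apart. Acot1 was at 0.51 without labelled exercise 2.

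Of 30 genes of glucose uptake and glycolysis, 4 were higher and 3 lower with groups apart, against 7.5% and 6.57% of all genes. Pgam1, phosphoglycerate mutase, stood at 58.7, 45.9 and 53.2 CPM in labelled sedentary against 80.1, 73.6 and 85.1 CPM in labelled exercise hearts (0.60 ± 0.16), in the opposite direction to Pfkfb3. The glucose transporter Slc2a1 was at -0.36 ± 0.17 and the pyruvate dehydrogenase kinase Pdk1 at -0.32 ± 0.15. Branched-chain amino acid breakdown had 16 of 18 genes below 0 at a median of -0.09. Its regulators were the kinase Bckdk at -0.19 ± 0.09 and the phosphatase Ppm1k at -0.35 ± 0.19 (-0.08 without labelled sedentary 2). Fbxo32, the muscle ubiquitin ligase atrogin-1, stood at 109, 119 and 128 CPM in the labelled sedentary and 81.3, 109 and 65.6 CPM in the labelled exercise hearts (-0.48 ± 0.16).

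Collagens and matrix genes were higher in labelled exercise hearts. Of 36 tested, 18 were higher with groups apart and 1 lower, against 7.5% and 6.57% of all genes. At an unadjusted p under 0.05, 12 were higher and 1 lower, against 3.86% and 3.56%, and the median was 0.43. None passed edgeR, and DESeq2 called Thbs1. Col3a1, a fibrillar collagen, stood at 222, 167 and 209.9 CPM (labelled sedentary) and 302, 863 and 334 CPM (labelled exercise) (1.33 ± 0.52). Labelled exercise 2 holds far more than any other heart, and the difference without it was 0.67. Col1a1 stood at 94.6, 77.5 and 83.03 CPM in labelled sedentary against 127, 246 and 127 CPM in labelled exercise hearts (0.97 ± 0.33, or 0.57 without labelled exercise 2), and Col1a2 was at 0.75 ± 0.27. Col5a2 stood at 28.5, 25.3 and 29.8 CPM in the labelled sedentary and 39.9, 76.2 and 40.8 CPM in the labelled exercise hearts (0.91 ± 0.25). Without labelled exercise 2, Col1a2 was at 0.41 and Col5a2 at 0.53. In each of these labelled exercise 2 is the highest, while the other 2 labelled exercise hearts also lie above all labelled sedentary hearts. The basement membrane collagens Col4a1 and Col4a2 had overlapping groups, as the plot of matrix genes shows.

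Proteins that assemble and turn over the matrix followed. Thbs1, thrombospondin 1, stood at 5.49, 4.52 and 6.61 CPM (labelled sedentary) and 11.3, 20.1 and 17.4 CPM (labelled exercise) (1.55 ± 0.40, DESeq2 adjusted p = 0.0151), and at 1.36 without labelled exercise 2. The cross-linking enzymes Lox and Loxl1 were at 1.44 ± 0.51 and 0.53 ± 0.17, and Lox was at 0.69 without labelled exercise 2. Eln, elastin, stood at 48.2, 26.5 and 33.3 CPM in labelled sedentary against 50.6, 73.9 and 77.7 CPM in labelled exercise hearts (0.91 ± 0.32). The metalloproteinases Mmp3 and Mmp14 were at 1.65 ± 0.54 and 0.72 ± 0.28, and their inhibitor Timp1 stood at 2.598, 1.73 and 1.77 CPM in the labelled sedentary and 4.45, 17.4 and 5.54 CPM in the labelled exercise hearts (2.17 ± 0.78, or 1.29 without labelled exercise 2). Timp3 was the exception with groups apart on the lower side, at 219, 359 and 247 CPM (labelled sedentary) and 165, 151 and 207 CPM (labelled exercise) (-0.66 ± 0.22, or -0.42 without labelled sedentary 2). The list median was 0.33 without labelled exercise 2, 0.33 without both hearts with high atrial markers and 0.38 without both hearts lacking vector entries.

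Fibroblast markers stood higher with them in labelled exercise 2 and 3. Of 18 tested, 17 were above 0 and 5 were higher with groups apart, against 7.5% of all genes. Col1a1, Col3a1, Lum and Dcn belong to this list and to the matrix list, and Col1a1 and Col3a1 are among the 5. The median was 0.37, or 0.25 without labelled exercise 2. These markers summed to 2371 to 2547 CPM in labelled sedentary and 2557 to 3526 CPM in labelled exercise hearts. The list mean of log2 CPM was 5.13, 5.08 and 5.11 in labelled sedentary and 5.14, 5.77 and 5.65 in labelled exercise hearts. In bulk tissue more cells of a type and more RNA per cell cannot be told apart. Pcolce, which helps to process procollagen, stood at 50.9, 45.6 and 52.5 CPM in labelled sedentary against 61.99, 69.7 and 67.9 CPM in labelled exercise hearts (0.42 ± 0.14). Dpt, dermatopontin, was at 0.49 ± 0.21 with groups apart and the microfibril protein Mfap5 at 0.43 ± 0.18 with overlapping groups. Macrophage markers had 14 of 17 genes above 0 and 3 higher with groups apart, against 7.5% of all genes. They summed to 308 to 359 CPM in labelled sedentary and to 345, 680 and 453 CPM in labelled exercise 1, 2 and 3. The complement gene C1qa stood at 41.03, 32.2 and 36.3 CPM in the labelled sedentary and 40.7, 72.2 and 57.6 CPM in the labelled exercise hearts (0.64 ± 0.24). C1qc was at 0.60 ± 0.23, Cd14, a receptor for bacterial lipid, at 0.66 ± 0.25 and the folate receptor Folr2 at 0.60 ± 0.26. Without labelled exercise 2, C1qa was at 0.42, Cd14 at 0.41 and Folr2 at 0.34. The macrophage median of 0.60 was 0.22 without labelled exercise 2 and 0.28 without both hearts with high atrial markers. Pf4, a platelet chemokine, stood at 13.2, 7.93 and 8.28 CPM (labelled sedentary) and 14.1, 34.9 and 17.4 CPM (labelled exercise) (1.18 ± 0.37), highest in the same heart, and was at 0.68 without it. The part of these cell markers in the matrix values was not tested.

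**Figure D3:**
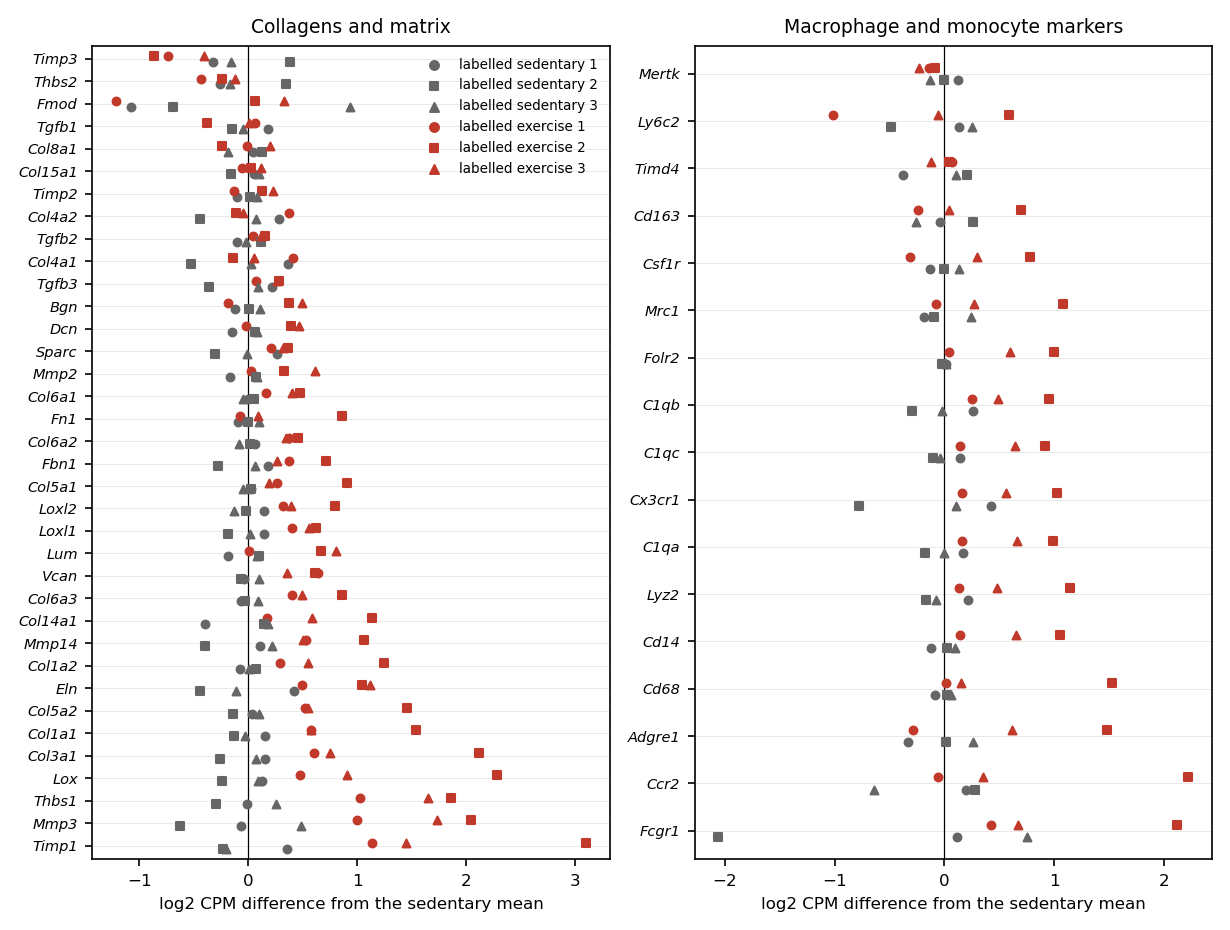
Rows are matrix genes (left) and macrophage and monocyte markers (right), and the x axis is the log2 CPM difference from the labelled sedentary mean for each Flox heart (grey labelled sedentary, red labelled exercise, shapes are replicates). Labelled exercise 2 (red squares) lies far to the right for Timp1, Lox, Col3a1 and most macrophage markers, while labelled exercise 1 lies within or close to the grey points for most macrophage markers.

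Proliferation genes were at low levels. Of 32 tested, 28 were above 0 and 4 were higher with groups apart, against 7.5% of all genes. The median was 0.71, and this value leaned on 1 heart. Cdc20, an activator of the anaphase-promoting complex, stood at 1.71, 1.16 and 1.01 CPM in labelled sedentary against 1.54, 4.05 and 2.22 CPM in labelled exercise hearts (1.02 ± 0.39), and Cdk1 at 1.48, 0.525 and 0.757 CPM in the labelled sedentary and 1.43, 3.996 and 1.16 CPM in the labelled exercise hearts (1.27 ± 0.52). Labelled exercise 2 is far above the others in both. Without it Cdc20 was at 0.54, Cdk1 at 0.50 and the list median at 0.15. Tyms, thymidylate synthase, had groups apart at 0.77 ± 0.31, and the mitotic kinesin Kif20a was at 0.96 ± 0.34. Without labelled exercise 2 they were at 0.49 and 0.55. Among cell cycle regulators of the G1 phase, the cyclin Ccnd2 stood at 109, 129 and 139.7 CPM (labelled sedentary) and 90.3, 91.5 and 84.004 CPM (labelled exercise) (-0.51 ± 0.12, DESeq2 adjusted p = 0.0179), lower in all 3 labelled exercise hearts. The cyclin Ccne1 was at -1.06 ± 0.40, and Yap1, the Hippo pathway co-activator, at 0.25 ± 0.10.

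Cytosolic ribosomal protein genes were above 0 in 74 of 75 cases at a median of 0.24. Of these, 11 were higher with groups apart and 3 at an unadjusted p under 0.05, against 7.5% and 3.86% of all genes. The list mean of log2 CPM was 7.49, 7.36 and 7.24 in labelled sedentary and 7.39, 7.64 and 7.77 in labelled exercise hearts. Labelled exercise 1 thus lay below labelled sedentary 1. Rpl15 stood at 213, 196 and 182 CPM in labelled sedentary against 221, 249 and 259 CPM in labelled exercise hearts (0.30 ± 0.14), Rpl31 was at 0.50 ± 0.21 and Rpl10a at 0.37 ± 0.17. Of the vascular genes, Tek, the angiopoietin receptor, stood at 70.7, 57.2 and 65.01 CPM in the labelled sedentary and 73.7, 76.3 and 77.7 CPM in the labelled exercise hearts (0.24 ± 0.11), and Emcn, endomucin, was at 0.26 ± 0.12. Lyve1, a marker of lymphatic vessels, stood at 15.5, 15.3 and 11.2 CPM (labelled sedentary) and 23.3, 22.2 and 16.7 CPM (labelled exercise) (0.57 ± 0.20). Of 21 endothelial markers, 13 were above 0 at a median of 0.07, and 3 were higher with groups apart, against 7.5% of all genes. Of 7 lymphatic markers, 6 were above 0, but Lyve1 alone had groups apart. Prox1 was at 0.04 ± 0.20 and Flt4 at -0.002 ± 0.165. Dll4, a Notch ligand, was at -0.44 ± 0.20 and lower with groups apart. Among immediate early genes, 5 of 26 were higher with groups apart and 0 lower, against 7.5% and 6.57% of all genes. They include Fosl2 at 0.54 ± 0.21, Nr4a3 at 1.15 ± 0.53 and Socs3 at 0.86 ± 0.42. Without labelled exercise 2, Fosl2 was at 0.36, Socs3 at 0.48 and Dll4 at -0.24.

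**Figure D4:**
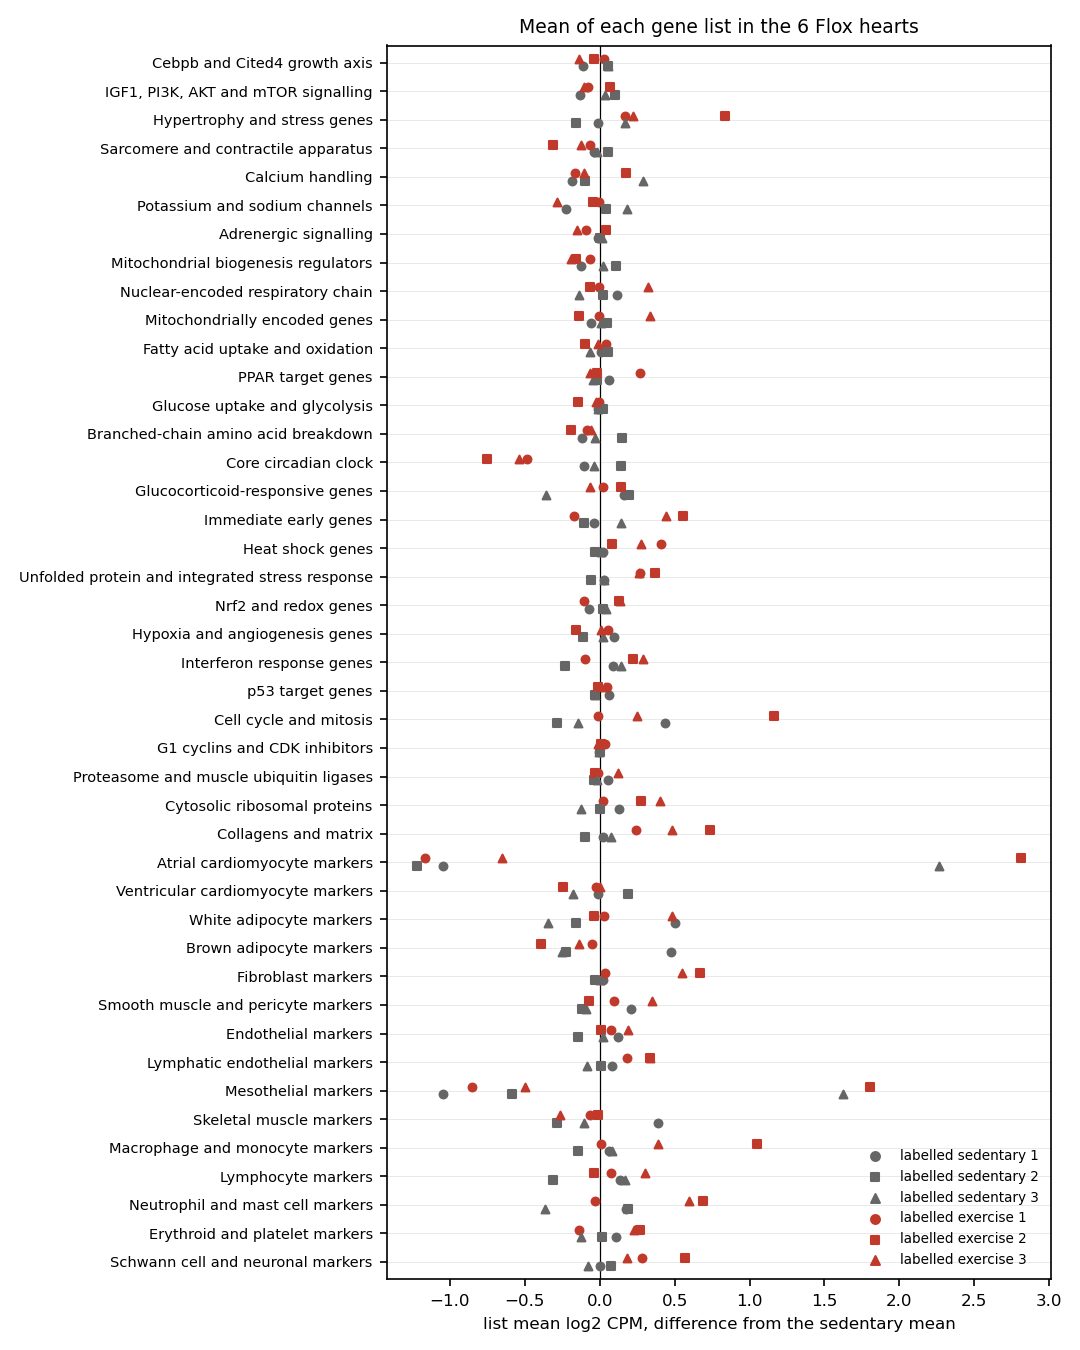
Each row is one of 43 gene lists with a tested member, and the x axis is the mean log2 CPM of its genes in each Flox heart minus the mean of the labelled sedentary hearts (grey labelled sedentary, red labelled exercise, shapes are replicates). The core clock and sarcomere lists have all 3 red points to the left of the grey ones. The unfolded protein, heat shock, collagen, hypertrophy, fibroblast, lymphatic and Schwann cell lists have them to the right. The margin is small for the sarcomere, hypertrophy and fibroblast lists. Atrial and mesothelial markers lie far right in labelled sedentary 3 and labelled exercise 2.

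The difference between genotypes was tested as an interaction, the labelled exercise effect in KO minus that in Flox. edgeR called 0 genes, with 0.279 as the smallest adjusted p, and DESeq2 called 50. The unadjusted edgeR p was under 0.05 for 1505 genes (9.88%). This count was 909 without labelled sedentary 2 of the Flox hearts and 2799 without labelled sedentary 1 of the KO hearts, and 3446 with voom. For the clock the median in KO hearts was -0.21 against -0.90 in Flox hearts, and 20 of the 21 genes had a smaller absolute difference in KO, against 7078 of all 15226 genes. The lists shown here were chosen with their Flox differences known, so nothing is read from that count. At an unadjusted p under 0.05 for the interaction were 4 of the 21, Bhlhe41, Cry2, Tef and Nr1d2, against 9.88% of all genes. Bhlhe41 was at -0.25 ± 0.26 in KO (interaction adjusted p = 0.412, edgeR), Cry2 at -0.04 ± 0.19, Tef at -0.31 ± 0.35 and Nr1d2 at -0.21 ± 0.27. Bhlhe40 was at -0.64 ± 0.12 in KO, Arntl at 0.93 ± 0.77, Nfil3 at 1.11 ± 0.40 and Ciart at -1.19 ± 0.61, with the signs they had in Flox hearts.

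Chaperones gave mixed values in KO. Dnaja1 was at 0.07 ± 0.13 there, against 0.92 ± 0.13 in Flox (interaction adjusted p = 0.363, edgeR), and DESeq2 called this difference. Hspa8 was at 0.32 ± 0.14 and Hspa5 at 0.31 ± 0.16, with interaction unadjusted p of 0.283 and 0.701 (edgeR). The unfolded protein list had a median of 0.14 in KO. In it 8 of 27 genes had an unadjusted interaction p under 0.05 (edgeR), against 9.88% of all genes. The serine synthesis genes Phgdh and Psat1 were at -0.25 ± 0.24 and -0.32 ± 0.20. Collagens and matrix had a median of -0.10 in KO, with 8 of 36 genes at an unadjusted interaction p under 0.05, against 9.88% of all genes. Among the 8 were Thbs1 (0.26 ± 0.37) and Col5a2 (-0.12 ± 0.24). The signs of Sgk1 (-0.20 ± 0.12), Angpt2 (-0.72 ± 0.18), Zbtb16 (0.45 ± 0.60) and Foxo3 (0.34 ± 0.21) were opposite in KO. In KO hearts Pfkfb3 was at -1.09 ± 0.21 and Angptl2 at -0.65 ± 0.13, against -1.10 ± 0.21 and -0.63 ± 0.13 in Flox. Branched-chain amino acid genes had a median of 0.32 in KO against -0.09 in Flox. Of these, 12 of 18 had an unadjusted interaction p under 0.05 (edgeR), against 9.88% of all genes. None of these differences between genotypes passed adjustment in edgeR, while the 50 genes that DESeq2 called include Dnaja1, Sgk1, Angpt2 and Zbtb16. The KO groups also differed in atrial markers (median -2.22) and white adipocyte markers (median -1.43). With the mean of the atrial markers as a covariate in edgeR, 955 genes had an unadjusted interaction p under 0.05 in place of 1505, and the smallest adjusted p was 0.617. The part of adipocyte markers was not tested.

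**Figure D5:**
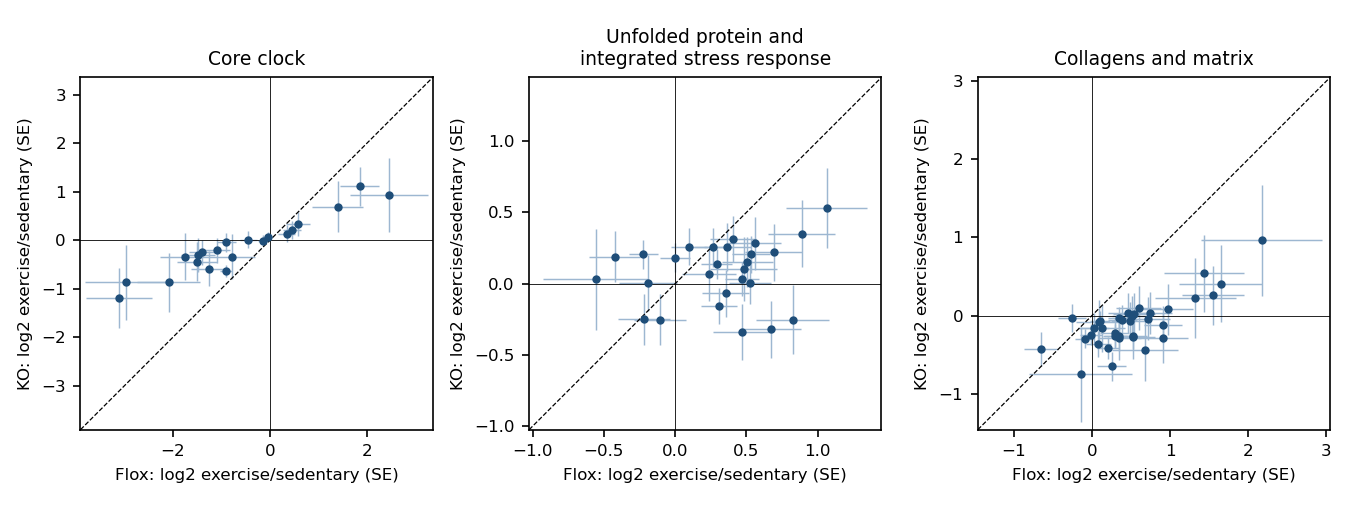
Each point is a gene of the clock, the unfolded protein and integrated stress response or the collagen and matrix list, with its log2 labelled exercise over labelled sedentary difference in Flox (x) and KO hearts (y), error bars of 1 standard error and a dashed line of equal values. Clock points lie closer to 0 in KO than in Flox in 20 of 21 genes, and matrix points lie mostly to the right of the line. The lists were chosen with their Flox differences known, so nothing is read from these positions.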

How the data were processed

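Whole-heart RNA was sequenced after ribosomal RNA depletion, per the labels' protocols. Values are estimated counts for each gene in each library, as deposited by the authors. Per the submitters' processing notes, Salmon and FastQC were used (versions not given in the sources used here), and mm9 and mm10 are listed without a role. Among genes with any count, 21.6% to 22.6% of the values in Flox libraries are not whole, and values were rounded to whole numbers. Of 55874 entries, 1696 naming vectors, phages, adaptors or linkers were left out and 54178 were kept.

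Groups follow the treatment words. Genes were filtered with filterByExpr (15226 kept) and scaled by TMM. A model of the 4 groups over all 12 libraries was tested with edgeR 4.0.16 (glmQLFit, robust, and glmQLFTest, R 4.3.3) and Benjamini-Hochberg adjustment at 0.05. The code was tested on simulated data. Alternatives were DESeq2 1.42.0, limma 3.58.1 (voom with sample weights), no filter, other scaling, the Flox libraries alone, a replicate block and leaving out each library. Same-numbered Flox libraries deviated from their group means with correlations of 0.08, -0.15 and -0.13. With 3 libraries per group these values cannot settle whether the numbers pair the hearts. The main model has no replicate term.

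Genes named by rule were Cited4, the 12 with the smallest p in each direction (mean of at least 1 CPM, groups apart, clone-type symbols left out) and the 4 with the smallest p in each list. Other list members were named after their values were seen. The comparison, members and lists were chosen with earlier results of these data known. Sequences and gene coordinates are from RefSeq (GRCm38.p6) and GENCODE (GRCm38). Values of some list members are not reported here.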

Additional observations from a re-analysis of the deposited data

Results flagged for a closer look

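Entries naming cloning vectors, adaptors and controls were left out of all comparisons. They took 0.139% of counts in labelled exercise 1 and 0.123% in labelled exercise 3, above the highest labelled sedentary Flox heart (0.0796%). In labelled exercise 2 they took 3.87e-05%, so the labelled exercise hearts lie on both sides of the labelled sedentary ones.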

How the results depend on the processing

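The number of genes called in Flox hearts was 0 with edgeR, 49 with DESeq2, and 2 each with the 6 Flox libraries alone, with no filter on low counts and with voom and sample weights. Leaving out one library at a time gave 0 to 2 (1 without labelled exercise 1, labelled sedentary 3 or KO exercise 2, and 2 without KO exercise 3). For the interaction the count was 0, with 50 in DESeq2 and 1 with no filter, and leaving out one library gave 0 to 2 (2 without labelled exercise 1, 1 without KO sedentary 2). With the replicate number as a block, 0 genes were called in Flox and 0 for the interaction. Alternatives that left out both hearts with high atrial markers or both lacking vector entries, or added a vector term, were chosen after seeing the data. Of 175 genes followed, 169 kept their direction in every alternative run and none of the 24 with the smallest p changed it. Cited1 was at 0.33 and Mef2c at 0.0203 without the high-atrial pair, and Gata4 at -0.0499 without the pair lacking vector entries and -0.0170 with voom. With one library left out at a time the sign also turned for Cited1 (-0.52 to 0.20), Gata4 (-0.0407 to 0.0851), Tbx5 (-0.63 to 0.0994), Ep300 (-0.24 to 0.0210) and Hsph1 (-0.18 to 0.80). The cause was not tested. Of 43 list medians, 18 changed sign in some alternative.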

Other observations

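Some of the 49 genes that DESeq2 called, and that edgeR did not, belong to no list above and to neither set of 12. They were chosen for naming after their values were seen. Usp2, a deubiquitinase whose RNA cycles with the clock in many tissues, stood at 104, 163 and 101 CPM in labelled sedentary against 68.5, 50.2 and 59.8 CPM in labelled exercise hearts (-1.05 ± 0.25, DESeq2 adjusted p = 0.0143). Its groups are far apart. Ppat, which opens purine synthesis, stood at 19.1, 32.5 and 28.1 CPM in the labelled sedentary and 17.5, 14.1 and 17.2 CPM in the labelled exercise hearts (-0.71 ± 0.17), also with no overlap. Gpcpd1, a glycerophosphodiesterase, was at -0.96 ± 0.24, and the DNA repair gene Xpc at -0.43 ± 0.09. On the higher side, Ptx3, a secreted pattern recognition protein, stood at 0.236, 0.473 and 0.404 CPM (labelled sedentary) and 0.912, 4.42 and 1.44 CPM (labelled exercise) (2.58 ± 0.69). The chemokine Ccl9 was at 1.70 ± 0.45 and Clmp, an adhesion molecule, at 1.00 ± 0.24.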
